A study of Mus musculus with 16 samples.

Results

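Complex I, NADH:ubiquinone oxidoreductase, is the largest enzyme of the mitochondrial respiratory chain. It takes electrons from NADH through a peripheral arm in the matrix and pumps protons through a membrane arm. The core subunits that carry flavin and iron-sulfur clusters are encoded in the nucleus, whereas the core subunits that pump protons are encoded in mitochondrial DNA (the mt-Nd genes). Many accessory subunits surround the core, and assembly factors, which are not part of the finished enzyme, help to build it. Many kidney tubule cells rely on this chain for transport work, and how far the cells used here do so was not measured. Doxycycline (DOX), a tetracycline antibiotic used to switch transgenes on, is known to hinder protein synthesis on mitochondrial ribosomes, where the mt-Nd proteins are made.

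The genes described here are the nuclear genes of complex I measured in mIMCD3 cells treated with DOX or vehicle. A gene was a member if its symbol was Nduf followed by a, b, c, s, v, ab or af, a number and at most 1 further letter, and if it had at least 1 CPM (counts scaled to the library total) in at least 4 of the 16 libraries. The symbol matched 48 genes, and 46 of these passed the level filter, out of 13234 genes tested and 54393 in the count table. The members comprised 38 subunits and 8 assembly factors (*Ndufaf1* to *Ndufaf8*). *Ndufa11b* and *Ndufs6b*, both annotated as processed pseudogenes, did not pass. *Ndufa4l2* and *Ndufab1-ps* lie outside the symbol pattern and were at or near 0 TPM (a share of all transcripts, which divides by transcript length). *Ndufb1-ps*, also outside the pattern and annotated as a long noncoding RNA, had 185 ± 13.6 TPM in DMSO (SD, n = 8).

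mIMCD3 is an epithelial line from the inner medulla of a mouse transgenic for SV40. Cells grew for 10 days on permeable filters and then received 2 µg/mL DOX, or DMSO as vehicle, for 3 or 6 days. This gave 4 groups of 4 libraries: DMSO for 3 days, DOX for 3 days, DMSO for 6 days and DOX for 6 days. All groups carried the genotype wild type in the labels, and the libraries were made from polyadenylated RNA with a directional kit. The line is a limited model of the collecting duct, since only 3 of 10 markers of principal cells passed the level filter and their summed level ran from 3.12 to 10.2 TPM, against 1570 to 2586 TPM for 6 epithelial markers. Summed principal cell markers were lower with DOX, at 3.12 to 5.08 TPM against 6.93 to 10.2 TPM with DMSO, as were epithelial markers, at 1570 to 1820 TPM against 2125 to 2586 TPM. The sum of 4 genes listed as macrophage markers, of which 2 passed the level filter, was 10.7 to 16.6 TPM against 24.8 to 32.5 TPM. These sums are transcript levels in an epithelial line and do not show that other cell types were present. Their part in the values below was not tested, and in bulk RNA fewer cells of a type and less RNA per cell cannot be told apart. Total counts ran from 16933108 to 23960592 per library, so that 3 counts came to 0.125 to 0.177 CPM, a floor that covers counting error only.

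Replicate 1 of DOX at 3 days stood apart from the other 3 libraries of its group. The mean log2 CPM of the 38 subunits, set to 0 on average over the 8 DMSO libraries, was -0.03 in this library and 0.28 to 0.35 in the other 3. For the 8 assembly factors it was 0.15 against 0.36 to 0.45. At 3 days the numbers of members passing each test and the medians of subunits and assembly factors are therefore given with and without it. Other results at 3 days, among them those of other gene lists, include it. Nothing in the labels says whether replicates came from separate cultures, so the p-values measure the spread between these libraries.

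**Figure D1:**
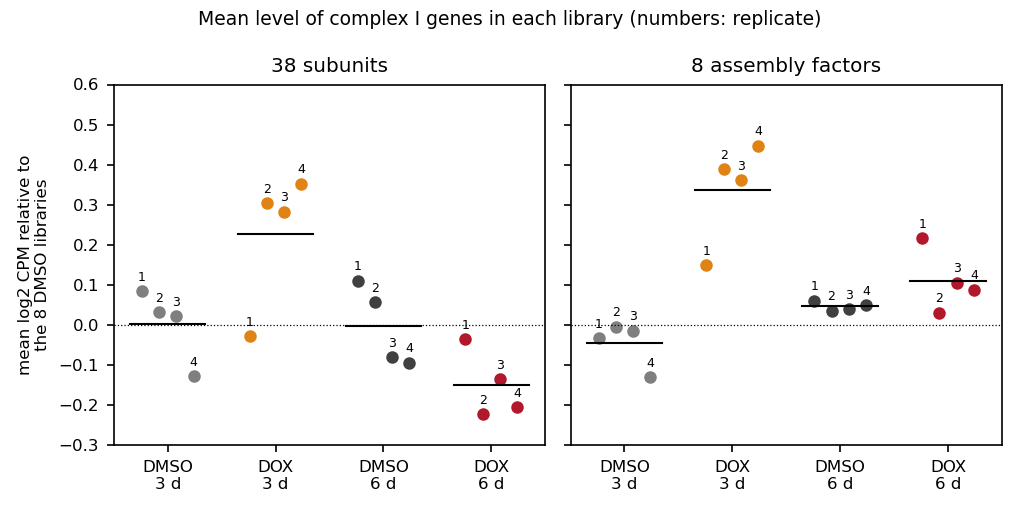
Mean log2 CPM over the 38 subunits (left) and the 8 assembly factors (right) in each of the 16 libraries, relative to the mean of the 8 DMSO libraries. Numbers give the replicate and lines the group mean. Replicate 1 of DOX at 3 days lies at -0.03 for subunits, below the other 3 libraries of its group. All 4 libraries of DOX at 6 days lie below 0 for subunits and above 0 for assembly factors, but overlap DMSO at 6 days in both. For subunits they run from -0.22 to -0.04, against -0.09 to 0.11 with DMSO. For assembly factors they run from 0.03 to 0.22, against 0.04 to 0.06 with DMSO.

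Sequences upstream of 4 members are shown because these genes stand for the patterns described below, and because their matches to known binding motifs differ. *Ndufaf5* was called higher at 3 days, *Ndufb3* had the largest fall of any member at 6 days, and the DOX effect on *Ndufa11* and *Ndufaf4* differed between the times. For *Ndufaf4* that difference was kept under only 12 of 25 alternative settings. The 4 genes were chosen after their values and matches were seen. The sequences are from RefSeq for GRCm38.p6, run 5′ to 3′ and end before the annotated start of the transcript. In that build they cover chr2:140170396-140170645 on the plus strand for *Ndufaf5*, chr1:58586147-58586383 on the plus strand for *Ndufb3*, chr17:56717512-56717761 on the plus strand for *Ndufa11* and chr4:24897833-24898082 on the plus strand for *Ndufaf4*. Capitals mark matches to the motifs that were searched.
Ndufaf5: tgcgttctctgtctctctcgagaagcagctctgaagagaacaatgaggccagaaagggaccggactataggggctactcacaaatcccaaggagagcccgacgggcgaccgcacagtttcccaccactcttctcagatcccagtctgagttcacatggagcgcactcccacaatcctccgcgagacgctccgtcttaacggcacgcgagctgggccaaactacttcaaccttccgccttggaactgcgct
Ndufb3: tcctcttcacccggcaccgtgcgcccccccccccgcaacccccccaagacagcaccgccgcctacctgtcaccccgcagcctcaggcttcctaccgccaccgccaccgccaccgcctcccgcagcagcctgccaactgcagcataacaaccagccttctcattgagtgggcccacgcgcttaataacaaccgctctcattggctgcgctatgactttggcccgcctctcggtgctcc
Ndufa11: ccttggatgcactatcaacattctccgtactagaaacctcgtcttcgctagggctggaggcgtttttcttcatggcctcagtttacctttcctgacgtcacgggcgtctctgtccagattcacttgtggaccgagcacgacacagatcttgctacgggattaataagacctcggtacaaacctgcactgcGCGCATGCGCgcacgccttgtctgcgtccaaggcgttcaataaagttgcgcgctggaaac
Ndufaf4: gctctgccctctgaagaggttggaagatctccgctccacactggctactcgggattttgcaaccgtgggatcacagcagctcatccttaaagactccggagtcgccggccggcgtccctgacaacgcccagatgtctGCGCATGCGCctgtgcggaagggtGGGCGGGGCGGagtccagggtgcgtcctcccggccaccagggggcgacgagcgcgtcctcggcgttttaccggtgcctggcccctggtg

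A promoter was matched for 40 of the 46 members. The 250 bases before the start were searched on both strands for 6 motifs: NRF1 (the palindrome in capitals in the *Ndufa11* sequence), ETS factors (CCGGAAG), YY1 (AAGATGGC), ERR (TCAAGGTCA), ATF4 with C/EBP (TGATGNAA) and SP1 (GGGCGG). NRF1, a regulator of nuclear genes for the respiratory chain, had its motif before 2 of 40 members (5.0%), *Ndufa11* and *Ndufaf4*, against 1.95% of 9802 tested genes with a promoter. In *Ndufaf4* it lay at -113 to -104 from the start, followed by 2 overlapping SP1 matches, and in *Ndufa11* at -60 to -51. The ETS motif lay before 5 members (12.5%), which were *Ndufaf1*, *Ndufaf8*, *Ndufb6*, *Ndufb7* and *Ndufs3*, against 16.3% of tested genes. The SP1 motif lay before 19 members (47.5%), against 65.0% of tested genes. The YY1, ERR and ATF4 motifs matched 0 members, against 2.45%, 0.316% and 2.29% of tested genes. None of the 6 motifs was found before 19 of the 40 members, *Ndufaf5* and *Ndufb3* among them. A match describes the letters of these windows and is not a measured binding site.

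Transcripts of assembly factors were far less abundant than those of subunits in DMSO-treated cells. The median over the 38 subunits was 178 TPM (mean of 8 libraries per gene) and the median over the 8 assembly factors 19.6 TPM, beside 15.0 TPM over all genes tested. *Ndufb9*, a membrane arm subunit, was highest at 597 ± 28.8 TPM (SD, n = 8, range 550.0 to 639), followed by *Ndufa4* at 540 ± 28.0 TPM and *Ndufa7* at 476 ± 27.1 TPM. *Ndufa4* was first described as a complex I subunit and has since been found in complex IV. Most neighbours in this order, such as *Ndufa1*, *Ndufa11* and *Ndufs5* at 178 to 179 TPM, lay within the spread between libraries of each other.

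*Ndufs1*, which encodes the largest core subunit, was the lowest of the subunits at 47.5 ± 5.13 TPM (range 38.7 to 54.2). It overlapped with *Ndufaf8*, the highest of the assembly factors at 54.6 ± 6.54 TPM (range 46.8 to 65.3). *Ndufaf4* was the lowest member at 9.82 ± 1.40 TPM (range 7.10 to 12.2), and *Ndufaf5* followed at 12.2 ± 1.44 TPM. The 7 nuclear core subunits had a median of 130 TPM, against 174 TPM for 19 accessory subunits of the membrane arm and 221 TPM for 9 of the peripheral arm. The 7 mt-Nd genes had a median of 877 TPM, and 40 nuclear subunits of complexes II to V had 430 TPM.

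**Figure D2:**
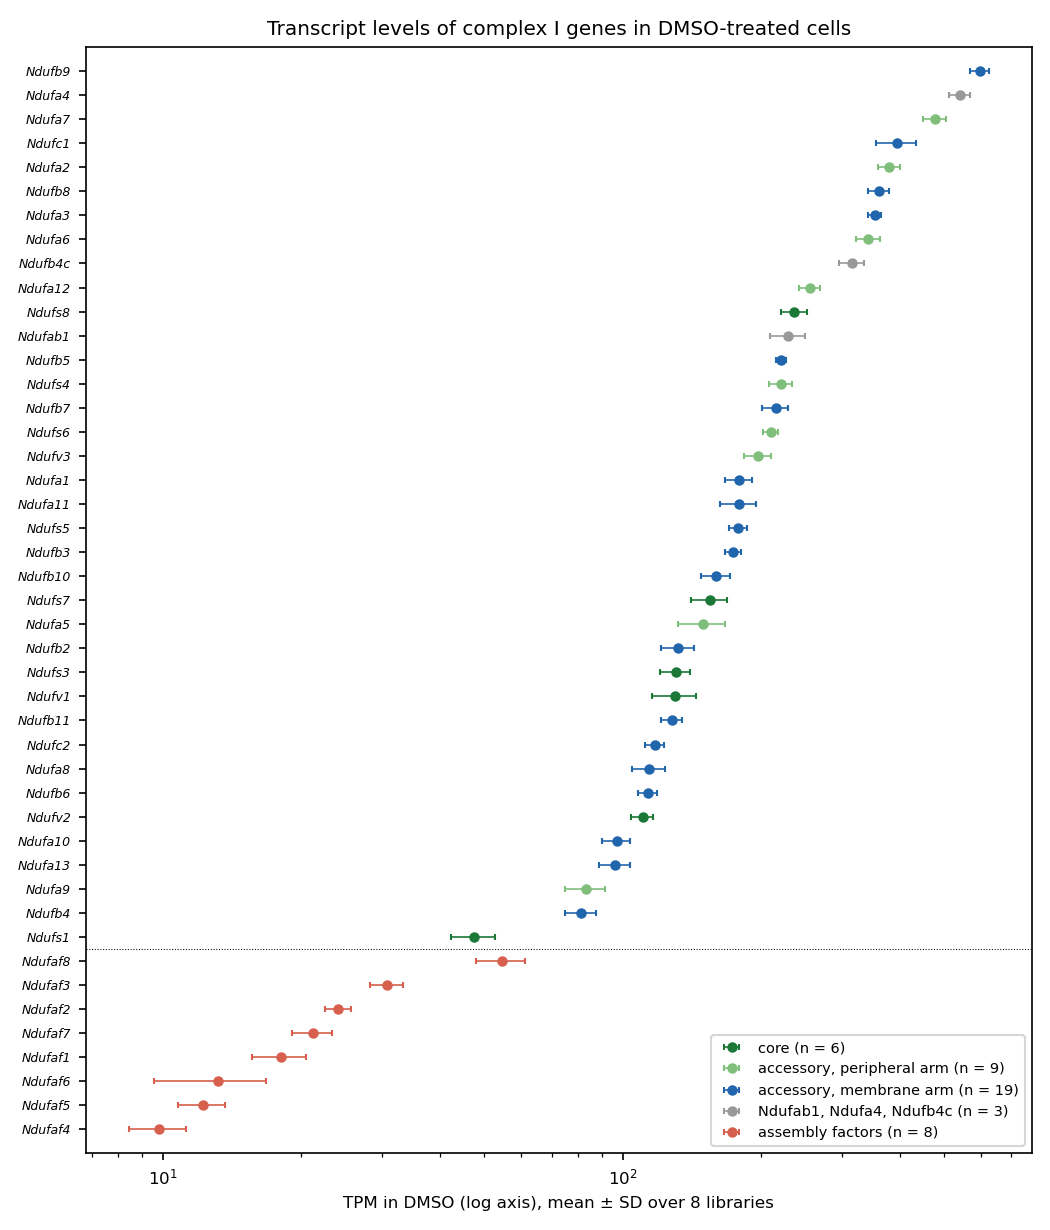
TPM in DMSO-treated cells (log axis) of 45 of the 46 members, as mean ± SD over 8 libraries, in the order of the mean within subunits (above the dotted line) and assembly factors (below it). Subunits run from 47.5 TPM for Ndufs1 to 597 TPM for Ndufb9 and assembly factors from 9.82 to 54.6 TPM, and Ndufaf8 and Ndufs1 are the pair of genes at which these ranges meet.

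Some members share reads or ground with other genes. *Ndufb4c* (chr15:73809507-73809896, minus strand) is annotated as a processed pseudogene and had 315 ± 19.1 TPM against 81.2 ± 6.24 TPM for *Ndufb4* itself, and reads of near-identical copies could have been split between them, so each value is uncertain. Their summed CPM was 89.3 ± 7.34 in DMSO and 106 ± 14.2 in DOX at 3 days (SD, n = 4), and 86.8 ± 5.84 and 72.6 ± 6.50 at 6 days. The spans of 22 of the 46 members overlap another gene, mostly on the opposite strand. Whether reads were counted by strand is not stated, so these members, which include *Ndufaf2*, *Ndufaf3*, *Ndufa3*, *Ndufa11*, *Ndufb6*, *Ndufb9*, *Ndufs1* and *Ndufs6*, are uncertain in that respect.

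With DMSO for 6 days against 3 days, edgeR's glmTreat called 0 of 46 members and 0.0% of all genes tested. A call means an adjusted p under 0.05 for a change of more than 20%. At an unadjusted p under 0.05 the same test gave 0 members and 172 genes, and DESeq2 and limma also called 0 members. Without the 20% threshold, edgeR's glmQLFTest gave 0 members after adjustment, against 0.468% of all genes. At an unadjusted p under 0.05 it gave 8 of 46 members and 2355 of 13234 genes, a similar share. By limma on log2(TPM + 1), 2 subunits passed as higher without the threshold, against 324 of 13180 genes.

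After 3 days of DOX, 3 assembly factors, *Ndufaf6*, *Ndufaf5* and *Ndufaf2*, were called higher, and 0 subunits were called in either direction. Coordinates are given in GRCm38.p6. These 3 of 46 members compare with 12.5% of all genes called, or 5.3% called higher and 7.22% called lower. The share of members called higher was thus near the background, and the share called in either direction was below it. All 3 calls fell among the 8 assembly factors and 0 among the 38 subunits. *Ndufaf6*, a protein needed early in complex I assembly (chr4:11051045-11076205, minus strand), rose 1.72-fold (log2 0.78 ± 0.10 SE, adjusted p = 0.00013 by glmTreat). *Ndufaf5*, which hydroxylates the core subunit *Ndufs7* (chr2:140170649-140203689, plus strand), rose 1.60-fold (log2 0.68 ± 0.10, adjusted p = 0.00065). *Ndufaf2*, a relative of the subunit *Ndufa12* that acts late in assembly (chr13:108002715-108158623, minus strand), rose 1.41-fold (log2 0.49 ± 0.10, adjusted p = 0.034).

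*Ndufaf6* had 6.74, 7.73, 7.44 and 6.34 CPM in the DMSO libraries at 3 days and 12.3, 11.6, 12.9 and 11.8 CPM in the DOX libraries. *Ndufaf5* had 9.80, 9.36, 9.84 and 8.73 CPM with DMSO and 12.6, 16.3, 14.0 and 17.2 CPM with DOX. *Ndufaf2* had 10.5, 9.44, 9.73 and 8.47 CPM with DMSO and 10.7, 14.3, 14.0 and 14.5 CPM with DOX. The groups did not overlap for any of these genes, although for *Ndufaf2* replicate 1 of DOX lay close to the highest DMSO library. The calls of *Ndufaf6* and *Ndufaf5* were kept under 25 of 26 alternative settings each, whereas that of *Ndufaf2* was kept under 13 of 26.

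The other assembly factors were not uniform. *Ndufaf7*, a methyltransferase of the matrix, *Ndufaf1*, *Ndufaf4* and *Ndufaf8*, the partner of *Ndufaf5*, had log2 fold changes of 0.40, 0.35, 0.33 and 0.33, and each passed glmQLFTest, which asks for any change, without being called over 20%. *Ndufaf3*, which binds *Ndufaf4* early in the assembly of the peripheral arm, had a log2 fold change of -0.25 ± 0.09 and also passed only without the threshold. Its CPM was 18.9, 19.3, 18.9 and 18.7 with DMSO and 13.8, 16.2, 16.4 and 17.4 with DOX, with no overlap. Thus 7 of 8 assembly factors had positive fold changes, with a median of 0.38 in log2 against 0.00 over all genes.

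Subunits shifted upwards in a narrow band at 3 days. The fold changes of the 38 subunits had a median of 0.25 in log2, ran from -0.01 to 0.39 and were positive for 36 genes. Without the 20% threshold 26 subunits passed as higher and 0 as lower, and with the assembly factors 33 members passed as higher and 1 (*Ndufaf3*) as lower, against 23.0% and 22.2% of all genes. All 7 nuclear core subunits passed as higher, from 0.13 ± 0.05 for *Ndufs1* to 0.35 ± 0.09 for *Ndufv2*. So did 6 of 9 accessory subunits of the peripheral arm and 12 of 19 of the membrane arm, led by *Ndufc2* at 0.39 ± 0.10. *Ndufb3*, *Ndufv3*, *Ndufa4*, *Ndufc1* and *Ndufa3* lay between -0.01 and 0.08. The groups did not overlap for 12 members, 11 higher and 1 lower, against 38.6% of all genes, 18.8% higher and 19.8% lower. Among the 38 subunits 5 did not overlap, all higher, a smaller share than the 18.8% of all genes. Of the 8 assembly factors, 6 were higher and 1 lower without overlap.

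Without replicate 1 of DOX at 3 days, 9 members were called higher instead of 3, adding *Ndufaf7*, *Ndufb5*, *Ndufb6*, *Ndufb9*, *Ndufc2* and *Ndufv2*, and the medians became 0.33 for subunits and 0.45 for assembly factors. How many of all genes were called without that library is not given here, so the rise cannot be set against the background. Length was estimated for each gene from the ratio of its counts to its TPM, scaled to bases. By this measure subunit transcripts were short, with a median of 516 bases against 942 for the assembly factors and 2379 for all genes. It can understate short transcripts, since *Ndufb4c* came to 202 bases, fewer than its annotated span. Across all 13234 genes the fold change at 3 days was lower for longer transcripts (Spearman's rho = -0.41, a description over genes that share the libraries). With the trend on length and GC content removed, the medians were 0.11 for subunits and 0.27 for assembly factors against 0.03 over all genes. In that fit 24 members passed as higher and 4 as lower, against 3408 and 2520 of all 13234 genes. On log2(TPM + 1), where all genes had a median of -0.15, subunits lay 0.19 and assembly factors 0.34 above that median. There 6 members passed as higher and 3 as lower, against 778 and 3810 of 13180 genes, and 0 members were called.

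After 6 days of DOX a set of small accessory subunits fell. *Ndufb3*, *Ndufa1*, *Ndufc1* and *Ndufa3*, all of the membrane arm, were called lower, together with *Ndufa4* and the assembly factor *Ndufaf3*. These 6 of 46 members compare with 21.6% of all genes called, or 11.6% called lower, so the share of members called lower was near the background. *Ndufb3* (chr1:58586384-58595964, plus strand) fell to 0.679 of its DMSO level (log2 -0.56 ± 0.09 SE, adjusted p = 0.0025 by glmTreat), *Ndufa4* (chr6:11900292-11907497, minus strand) to 0.692 (log2 -0.53 ± 0.09, adjusted p = 0.0056) and *Ndufa1*, which sits near where the arms join (chrX:37187588-37191163, minus strand), to 0.704 (log2 -0.51 ± 0.10, adjusted p = 0.014). *Ndufaf3* (chr9:108565537-108567434, minus strand) fell to 0.708 (log2 -0.50 ± 0.09, adjusted p = 0.015), *Ndufc1* (chr3:51404677-51408988, minus strand) to 0.726 (log2 -0.46 ± 0.09, adjusted p = 0.025) and *Ndufa3* (chr7:3617373-3620327, plus strand) to 0.739 (log2 -0.44 ± 0.09, adjusted p = 0.038).

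*Ndufb3* had 81.0, 86.4, 78.1 and 83.4 CPM with DMSO for 6 days and 62.8, 52.0, 57.4 and 51.3 CPM with DOX. *Ndufa4* had 160, 165, 149 and 151 CPM with DMSO and 123, 101, 108 and 102 CPM with DOX. *Ndufa1* had 35.2, 34.1, 32.0 and 28.3 CPM with DMSO and 24.8, 19.5, 24.0 and 23.1 CPM with DOX. In each of these genes every DOX library lay below every DMSO library of the same time.

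For *Ndufc1* the DMSO libraries had 69.7, 65.8, 64.3 and 68.0 CPM and the DOX libraries 51.0, 44.5, 48.1 and 51.1 CPM. For *Ndufa3* the values were 75.2, 69.4, 62.0 and 64.3 CPM with DMSO and 54.1, 45.6, 51.9 and 48.6 CPM with DOX. For *Ndufaf3* they were 21.5, 20.5, 18.7 and 16.5 CPM with DMSO and 14.5, 11.2, 14.5 and 14.6 CPM with DOX. The groups did not overlap here either. Replicate 2 of DOX at 6 days was the lowest of its group for 5 of these 6 genes, all but *Ndufb3*. Without that library 2 members were called, *Ndufa4* and *Ndufb3*, and the share of all genes called is not given here. *Ndufb3* was called under 26 of 26 alternative settings, *Ndufa4* and *Ndufaf3* under 24, *Ndufa1* under 22, *Ndufc1* under 21 and *Ndufa3* under 17.

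**Figure D3:**
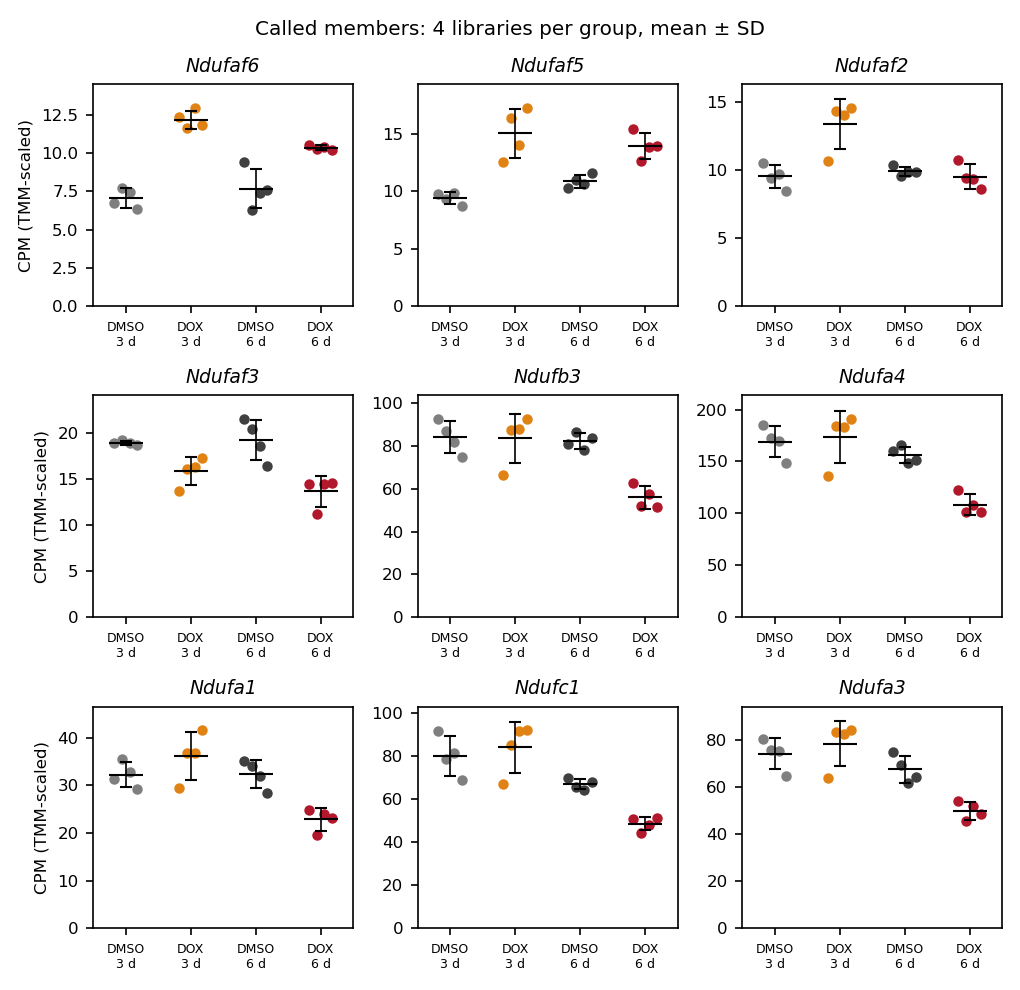
CPM (TMM-scaled, axes from 0) of the 9 members called at either time in the 4 libraries of each group, with mean ± SD in black. Ndufaf6, Ndufaf5 and Ndufaf2 were called higher at 3 days, and the other 6 were called lower at 6 days, where no DOX library reaches a DMSO library.

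Of 19 accessory subunits of the membrane arm, 18 had negative fold changes, 8 passed glmQLFTest as lower and 1, *Ndufa10*, as higher at 0.23 ± 0.06, with a median of -0.18 in log2. The 9 accessory subunits of the peripheral arm also had a median of -0.18, and 3 passed as lower, which were *Ndufs6* at -0.31 ± 0.08, *Ndufv3* at -0.30 ± 0.07 and *Ndufs4* at -0.25 ± 0.09. The 7 core subunits had a median of 0.03, with 2 higher and 0 lower. With the length and GC trend removed the medians were -0.04, -0.05 and 0.09. The difference between these lists was not tested, and in total 21 members passed, 7 as higher and 14 as lower, against 50.6% of all genes, 25.7% as higher and 25.0% as lower.

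*Ndufv1*, which binds NADH and the flavin, differed most among the core subunits, with a log2 fold change of 0.22 ± 0.06 (adjusted p = 0.0041 by glmQLFTest, not called over 20%). It had 164, 146, 140 and 131 CPM with DMSO for 6 days and 171, 165, 172 and 165 CPM with DOX, without overlap. *Ndufs1* was higher by 0.12 ± 0.05, with 91.6, 94.4, 97.9 and 98.2 CPM with DMSO against 105, 107, 101 and 103 CPM with DOX. The assembly factors *Ndufaf6*, *Ndufaf5*, *Ndufaf7* and *Ndufaf1* had log2 fold changes of 0.43, 0.36, 0.24 and 0.20, and each passed without the threshold while 0 of the 4 were called. *Ndufaf6* had 9.40, 6.30, 7.37 and 7.59 CPM with DMSO for 6 days and 10.5, 10.2, 10.4 and 10.2 CPM with DOX. The groups did not overlap for 15 members, 6 higher and 9 lower, against 43.0% of all genes, 22.1% higher and 20.9% lower. Of the 38 subunits 2 were higher and 8 lower, and of the 8 assembly factors 4 were higher and 1 lower.

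Across the 38 subunits, fold change and length had a Spearman's rho of 0.68, the shorter transcripts being lower, and 0.56 with the length and GC trend removed, against -0.01 over all genes. This is a description over genes of the same libraries. With the trend removed the median of subunits was -0.03 instead of -0.15 and that of assembly factors 0.17 instead of 0.07. Then 4 members were called instead of 6, *Ndufb3* and *Ndufaf3* lower and *Ndufaf5* and *Ndufaf6* higher. Of all 13234 genes, 1582 were called higher and 1518 lower in that fit. Without the threshold 10 members passed as higher and 11 as lower, against 4119 and 3394 of all genes. On log2(TPM + 1) 1 member passed as higher and 21 as lower, against 1611 and 2950 of 13180 genes. DESeq2 called 2 members, *Ndufa4* and *Ndufb3*, and its share over all genes is not given here.

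**Figure D4:**
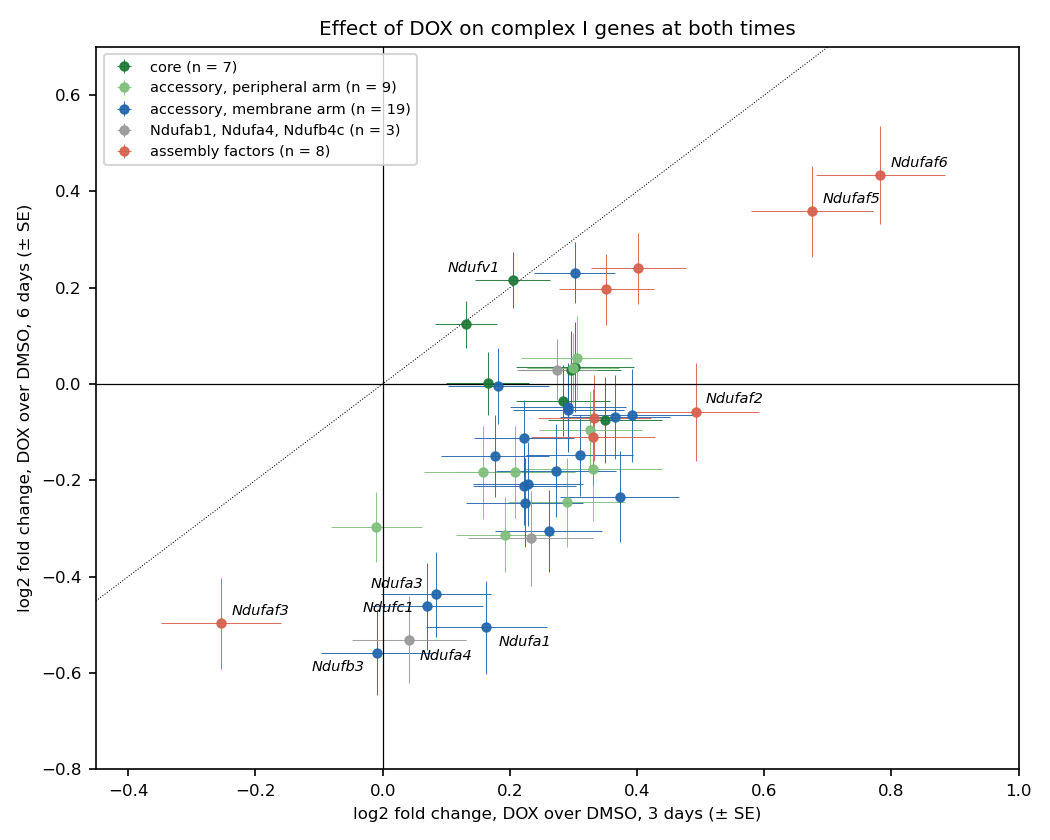
Log2 fold change of DOX over DMSO at 3 days (x) against 6 days (y) for the 46 members, with SE, coloured by role, and a dotted line where both are equal. The 2 comparisons have separate DMSO libraries. All points except Ndufv1 lie below the line, and the assembly factors Ndufaf6 and Ndufaf5 lie farthest to the right.

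The effect of DOX on complex I transcripts differed between the 2 times. The fold change at 6 days was smaller than at 3 days for 45 of 46 members, and 25 members passed the test of the difference (glmQLFTest on the interaction), all 25 in the negative direction, against 17.0% of all genes in either direction and 9.58% in the negative one. They were 22 subunits and 3 assembly factors (*Ndufaf2*, *Ndufaf4* and *Ndufaf8*), and 14 of them were accessory subunits of the membrane arm. The difference of *Ndufaf2* was kept under 23 of 25 alternative settings, that of *Ndufaf4* under 12 and that of *Ndufaf8* under 10. With the length and GC trend removed, 0 of 8 assembly factors passed. The median difference was -0.42 in log2 for subunits and -0.33 for assembly factors, against 0.01 over all genes. The 6 with the smallest p were *Ndufa1* at -0.67 ± 0.14 SE (adjusted p = 0.0034), *Ndufa11* at -0.57 ± 0.12 (adjusted p = 0.0041), *Ndufs6* at -0.51 ± 0.11 (adjusted p = 0.0047), *Ndufb6* at -0.61 ± 0.13 (adjusted p = 0.0054), *Ndufa4* at -0.57 ± 0.13 (adjusted p = 0.0060) and *Ndufb3* at -0.55 ± 0.12 (adjusted p = 0.0064). Of these, the difference kept its call under all 25 alternatives tried for *Ndufa1*, *Ndufa11*, *Ndufs6*, *Ndufb6* and *Ndufb3*, and under 24 for *Ndufa4*.

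*Ndufb6*, a membrane arm subunit, passed as higher at 3 days (log2 0.37 ± 0.09) and as lower at 6 days (log2 -0.23 ± 0.09, adjusted p = 0.045 by glmQLFTest), in neither case over 20%. At 6 days it passed under 14 of 26 alternatives and not, among others, with the length and GC trend removed (adjusted p = 0.069 by glmQLFTest) or with the replicate block. It had 47.3, 45.1, 43.1 and 38.7 CPM with DMSO and 45.3, 58.7, 57.3 and 64.1 CPM with DOX at 3 days. At 6 days it had 43.5, 47.4, 42.6 and 40.8 CPM with DMSO and 42.7, 35.6, 37.2 and 32.7 CPM with DOX. In both comparisons a library overlapped the other group, the DOX library being replicate 1 each time.

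*Ndufa11*, which has several membrane spans, had 47.8, 51.2, 49.7 and 47.8 CPM with DMSO and 48.9, 61.2, 62.0 and 63.5 CPM with DOX at 3 days. At 6 days it had 62.8, 52.5, 48.0 and 47.3 CPM with DMSO and 43.5, 41.8, 44.8 and 40.2 CPM with DOX, with no overlap. *Ndufs6*, a zinc-binding subunit of the peripheral arm, had 69.0, 64.4, 62.2 and 59.2 CPM with DMSO against 60.8, 76.3, 72.7 and 81.1 CPM with DOX at 3 days. At 6 days the same gene had 68.0, 66.6, 62.0 and 59.0 CPM against 56.2, 48.6, 50.2 and 50.9 CPM, again without overlap. *Ndufa1* was at 31.4, 35.5, 32.9 and 29.3 CPM with DMSO and 29.5, 36.8, 36.8 and 41.6 CPM with DOX at 3 days, where the groups overlapped.

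Members that passed without the threshold as higher at 3 days and lower at 6 days numbered 5, all subunits, against 0.718% of all genes. They were *Ndufa11*, *Ndufb6*, *Ndufb10*, *Ndufs4* and *Ndufs6*, and with the length and GC trend removed 1 of them, *Ndufa11*, still passed both. In 18 members (15 subunits and 3 assembly factors) a rise at 3 days went with a negative difference, against 3.59% of all genes. Core subunits contributed *Ndufs3* and *Ndufv2* to the 25, whereas *Ndufv1* and *Ndufs1* had differences of 0.01 ± 0.08 and -0.01 ± 0.07. The number of members past the test of the difference depended on the libraries and on length. It was 39 without replicate 1 of DOX at 3 days, 16 without replicate 4 of DMSO at 3 days, and 10 with the length and GC trend removed, where the median difference of subunits was -0.12. All 10 were negative, against 1033 of 13234 genes in that direction. For the fits without a library, the share of all genes is not given here.

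Of the mt-Nd genes, which encode the other core subunits of complex I, 4 of 7 were called higher at 3 days (*mt-Nd2* at 1.48 ± 0.10, *mt-Nd3* at 1.49 ± 0.15, *mt-Nd4* at 0.63 ± 0.11 and *mt-Nd4l* at 0.77 ± 0.10 in log2), and at 6 days 5 of 7, adding *mt-Nd1* at 0.76 ± 0.09. Of all genes, 5.3% were called higher at 3 days and 10.0% at 6 days. With the length and GC trend removed, and also on log2(TPM + 1), 2 of the 7 mt-Nd genes were called at 3 days. In those fits 719 of 13234 and 85 of 13180 genes were called higher. *mt-Nd5* was at 0.07 ± 0.08 and 0.38 ± 0.08 and was not called. The medians over the 7 were 0.63 and 1.29. *mt-Nd6*, whose transcript is known to lack a poly(A) tail, was at 0.14 ± 0.25 and 0.05 ± 0.25, and the libraries were selected for poly(A). The mt-Nd sum divided by the sum of the 38 subunits, both in TPM, was 0.659, 0.625, 0.705 and 0.751 with DMSO for 3 days and 1.34, 0.962, 1.03 and 0.949 with DOX. With 6 days it was 0.477, 0.686, 0.716 and 0.811 with DMSO and 1.59, 1.93, 1.86 and 2.04 with DOX. Every DOX library lay above every DMSO library, and replicate 1 of DOX at 3 days was the highest of its group.

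In TPM, both sums differed between the groups at 6 days without overlap. The subunit sum was 8375 ± 264 TPM with DMSO and 7023 ± 199 TPM with DOX (SD, n = 4), and the mt-Nd sum 5604 ± 1039 TPM and 13015 ± 997 TPM. At 3 days the subunit sum was 8108.5 ± 123 TPM and 8283 ± 438 TPM, a difference within the spread between libraries. In CPM the subunit sums overlapped at 6 days, at 3136 to 3625 with DMSO and 2964 to 3360 with DOX, whereas the mt-Nd sums did not, at 2404 to 3704 and 6650 to 7502.

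Of 12 listed assembly factors outside the Ndufaf family, 11 were tested (*Coa1* did not pass the filter), their median was 0.31 in log2 at 3 days and 0.14 at 6 days, and 7 passed as higher without the threshold at 3 days and 5 at 6 days. These 7 and 5 compare with 23.0% and 25.7% of all genes. On log2(TPM + 1) 0 of 11 passed at 3 days, and 3 had negative values. *Tmem70*, which acts in the assembly of complex I and of ATP synthase, was called at 3 days (0.44 ± 0.07, adjusted p = 0.027 by glmTreat) and was at 0.03 ± 0.07 at 6 days. Among 40 nuclear subunits of complexes II to V, 0 were called at 3 days by glmTreat and without the threshold 15 passed as higher and 1 as lower, with a median of 0.12. Of all genes, 12.5% were called, 23.0% passed as higher and 22.2% as lower. With the length and GC trend removed 10 of the 40 passed as higher and 11 as lower, with a median of 0.00, against 3408 and 2520 of 13234 genes. On log2(TPM + 1) 2 of the 40 passed as higher and 11 as lower, with a median of -0.08, against 778 and 3810 of 13180 genes. At 6 days 12 of the 40 were called lower and 0 higher, with a median of -0.25, against 11.6% and 10.0% of all genes. The 12 were led by *Uqcrh* of complex III at -0.71 ± 0.09 and *Atp5g3* of ATP synthase at -0.64 ± 0.10. Of the members classed as complex I subunits 5 of 38 were called lower at that time, and these include *Ndufa4*, which has since been found in complex IV. The difference between the lists was not tested.

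**Figure D5:**
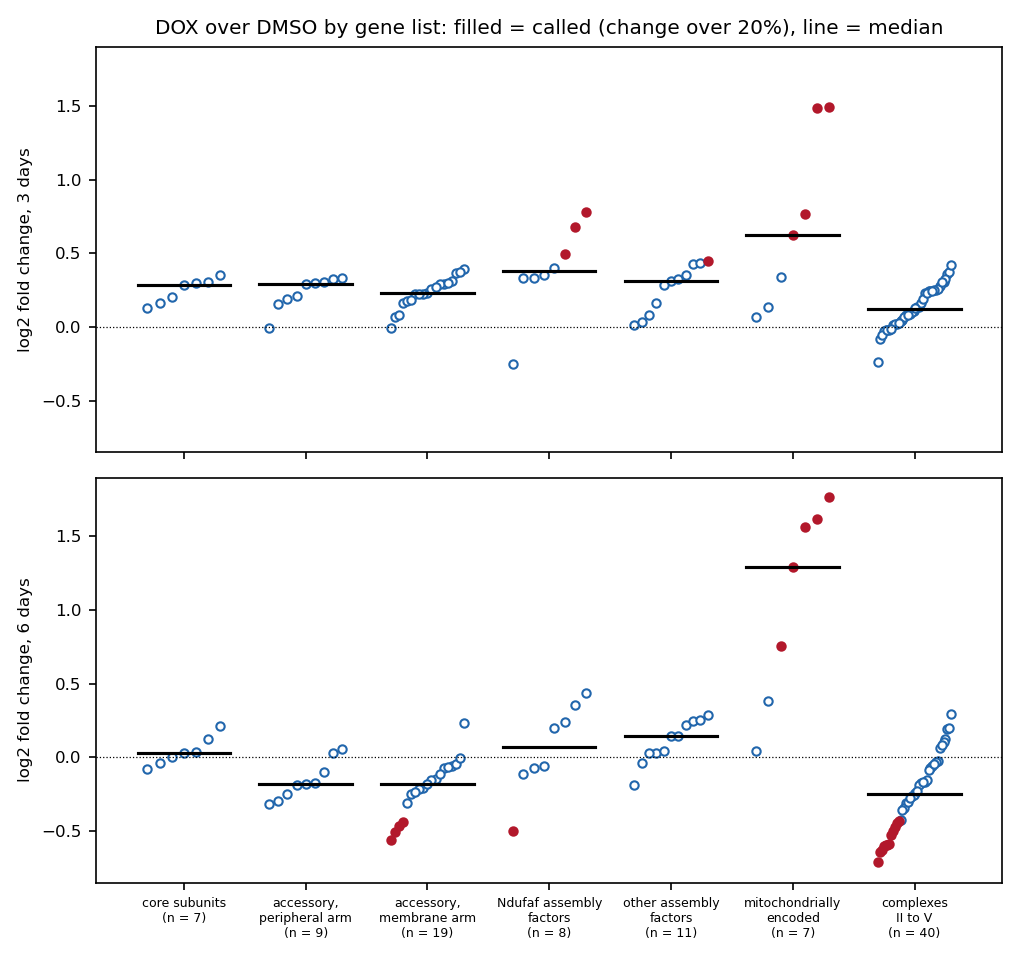
Log2 fold change of DOX over DMSO at 3 days (top) and 6 days (bottom) for each gene of 7 lists, filled where called by glmTreat, with the median as a line. At 6 days the medians are 0.03 for core subunits, -0.18 for both groups of accessory subunits, 0.07 for Ndufaf assembly factors, 0.14 for other assembly factors, 1.29 for mt-Nd genes and -0.25 for complexes II to V.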

How the data were processed

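Libraries of polyadenylated RNA from cells on filters, 16 libraries with 4 per group, were sequenced as paired reads of 75 bases. Per the labels, the authors aligned reads to GRCm38.p6 with STAR 2.6.0c and quantified transcripts with salmon. They deposited estimated counts per gene, not normalized, and TPM per gene. Whether reads were assigned by strand is not given in the sources used here. Estimated counts were rounded. Genes reaching 1 CPM in 4 or more of the libraries were fitted with edgeR 4.0.16 in R 4.3.3 (TMM scaling, glmQLFit with robust spread, 1 mean per group, all 16 libraries). glmTreat with a threshold of 20%, as in the study's methods, gave the calls, glmQLFTest tested for any change and for the difference between times, and p-values were adjusted by Benjamini-Hochberg over all genes tested. Total counts per library, given with the results, set the precision. Alternatives used DESeq2 1.42.0, limma 3.58.1 on log2(TPM + 1), a trend on length and GC content, other filters and scalings, a replicate block, and each library left out. Length was the ratio of summed counts to summed TPM, scaled to bases, or the longest annotated transcript where that ratio was not available. Scripts were tested on simulated data.

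The members and gene lists were chosen with earlier results of these data known. Values in every library are given for members called at either time, for the 6 with the smallest p in the test of the difference, and for the core subunit that differed most at 6 days. The highest and lowest member of each class are given with their range, and genes of the other lists are named where called. *Uqcrh*, *Atp5g3* and members given as further examples were chosen after their values were seen. The level of 1 member is not reported here by name.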

Additional observations from a re-analysis of the deposited data

Results flagged for a closer look

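Among the 17 genes named by rule, 68 groups of 4 libraries were examined for a library far from the other 3, and 6 were found. Chance gives about 1 in 20 groups. In DOX at 3 days, replicate 1 was far below the others for *Ndufa4* (136 CPM against 184 to 191), *Ndufa3* (64.2 CPM against 82.5 to 84.3), *Ndufaf2* (10.7 CPM against 14.0 to 14.5) and *Ndufa11* (48.9 CPM against 61.2 to 63.5). Replicate 4 of the same group was far above the others for *Ndufaf4* (22.6 CPM against 18.4 to 18.9). In DOX at 6 days, replicate 2 was far below the others for *Ndufaf3* (11.2 CPM against 14.5 to 14.6).

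The effect of DOX differed between 6 and 3 days by the interaction test of edgeR for 25 members, and each difference was negative. In log2, the differences were *Ndufa1* (-0.67), *Ndufb6* (-0.61), *Ndufa4* (-0.57), *Ndufa11* (-0.57), *Ndufb4c* (-0.55), *Ndufb3* (-0.55), *Ndufs4* (-0.53), *Ndufc1* (-0.53), *Ndufa3* (-0.52), *Ndufa7* (-0.51) and *Ndufs6* (-0.51). The other subunits had *Ndufb7* (-0.47), *Ndufb5* (-0.46), *Ndufc2* (-0.46), *Ndufb4* (-0.45), *Ndufb8* (-0.44), *Ndufb9* (-0.43), *Ndufb10* (-0.43), *Ndufv2* (-0.42), *Ndufa12* (-0.42), *Ndufs5* (-0.33) and *Ndufs3* (-0.32). The assembly factors had *Ndufaf2* (-0.55), *Ndufaf8* (-0.44) and *Ndufaf4* (-0.40). Leaving out replicate 1 of DOX at 3 days raised the number of such members to 39, and leaving out replicate 4 of DMSO at 3 days lowered it to 16. The share of all genes in those fits is not given here.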

How the results depend on the processing

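No call of a named gene turned in direction under any alternative tried. Some medians near 0 did turn on log2(TPM + 1). That of complexes II to V at 3 days went from 0.12 to -0.08, and that of core subunits at 6 days from 0.03 to -0.03. At 3 days, limma on log2(TPM + 1) called 0 members and passed 9 without the threshold, and at 6 days DESeq2 called 2. The difference between times passed for 10 members with the length and GC trend removed and for 8 with the replicate block added. Under these settings, in that order, the median log2 fold change of subunits was 0.1057 and 0.1063 at 3 days and -0.02549 and -0.02512 at 6 days, and that of assembly factors 0.2656 and 0.2666 at 3 days and 0.1688 and 0.1692 at 6 days. On log2(TPM + 1) the medians at 3 days were 0.045 for subunits and 0.19 for assembly factors. The cause of these moves was not tested.

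With each library left out in turn, 2 to 9 members were called at 3 days, 2 to 6 at 6 days and 0 to 0 in vehicle, 16 to 39 passed the test of the difference, and 23 to 40 and 15 to 23 passed without the threshold at 3 and 6 days. The median of subunits ran from 0.21 to 0.33 at 3 days and -0.20 to -0.08 at 6 days, and that of assembly factors from 0.35 to 0.45 and 0.03 to 0.10. Leaving out replicate 1 of DOX at 3 days gave the counts of 9, 39 and 40, leaving out replicate 4 of DMSO at 3 days those of 16 and 23 at 3 days, and leaving out replicate 2 of DOX at 6 days those of 2 and 15 at 6 days. These counts have no share of all genes beside them and describe the members only.

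Of the tests of named genes under alternatives, 461 kept their call and 73 lost it with the direction kept. Same-numbered libraries had a mean correlation of deviations of -0.10 at 3 days and -0.12 at 6 days, over 4 pairs each. These values show no shared deviation, but so few pairs cannot tell whether the libraries were paired by design. With the replicate block, *Ndufaf2* at 3 days, *Ndufa3* at 6 days and the difference of *Ndufaf8* lost their calls.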

Other observations

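*Ndufb1-ps*, annotated as a long noncoding RNA from a bidirectional promoter, lies beside the coding members in level and in course. Its CPM averaged 79.0 with DMSO and 81.5 with DOX at 3 days, and 68.8 and 50.2 at 6 days. It was called lower at 6 days (log2 -0.46 ± 0.10 SE, adjusted p = 0.045 by glmTreat), and its difference between the times was -0.50 ± 0.14 (adjusted p = 0.021 by glmQLFTest). Its span overlaps *Cpsf2* on the opposite strand.

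Among the 40 nuclear subunits of complexes II to V, 28 passed the test of the difference between times, all in the negative direction, with a median of -0.42 in log2. Of all genes, 9.58% passed in that direction. With the length and GC trend removed, 12 of the 40 passed in the negative direction and 1 in the positive one, with a median of -0.15. In that fit 1033 and 688 of 13234 genes passed in these directions.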
